A study of Mus musculus with 9 samples.

Results

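The 4 genes described here are Pdgfra, Vcan, Matn4 and Lrrn1, taken by gene symbol from normalized expression tables of 11315 genes. All 4 were present in each of the 9 libraries. They had been put together as markers of oligodendrocyte progenitors, and their groups of highest mean differed. Vcan had its highest mean in the cells labelled progenitors, and so had Pdgfra, the gene that the reporter of those cells is named for. Matn4 had its highest mean in PLP-GFP cells, and Lrrn1 had its lowest mean in the cells labelled progenitors.

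The libraries came from brains of C57BL/6 mice at postnatal day 60, from cells sorted by the fluorescence of a reporter. The 3 groups, of 3 libraries each, were PDGFRa-GFP cells (labelled oligodendrocyte progenitors), PLP-GFP cells (labelled pre-myelinating oligodendrocytes) and NDRG1-eGFP cells (labelled myelinating oligodendrocytes). The labels name no treatment. The promoter or construct behind each reporter is not given in the sources used here, and neither is the number of mice behind a library, so each p-value is set against the spread among these libraries alone, which may be technical.

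Oligodendrocyte progenitors divide and migrate through the adult brain, and give rise to the cells that wrap axons in myelin. Pdgfra encodes the alpha receptor for platelet-derived growth factor (PDGF), a tyrosine kinase through which PDGF-AA keeps progenitors dividing, and fibroblasts of the brain's coverings and vessels carry it too. Vcan encodes versican, a large chondroitin sulfate proteoglycan that binds hyaluronan in the extracellular matrix. Matn4 encodes matrilin 4, a secreted adaptor protein of the matrix. Lrrn1 encodes a membrane protein with leucine-rich repeats that is found in the developing nervous system.

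Each value is a log2 normalized value as deposited. The values of every library were almost the same set of numbers, with a median of 10.57 over all genes, so a value gives a gene's place among the genes of its library. A difference of 1 means a change of the normalized value by a factor of 2. The steps at the low end differed between libraries. There were 60, 62 and 13 distinct values under 5 in PDGFRa-GFP replicates 1, 2 and 3, 14, 16 and 16 in those of PLP-GFP and 48, 26 and 46 in those of NDRG1-eGFP. The PLP-GFP libraries, PDGFRa-GFP replicate 3 and NDRG1-eGFP replicate 2 are called coarse below. PDGFRa-GFP replicate 3 also stood apart, with correlations over all genes of 0.935 and 0.931 with the other libraries of its group, which correlated with each other at 0.982.

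The labelled cell types were checked against marker lists. Myelin sheath genes were near the top in every library: the median of the 10 myelin genes was 17.65 to 18.20 in PDGFRa-GFP, 17.93 to 18.14 in PLP-GFP and 18.39 to 18.48 in NDRG1-eGFP libraries. The cells labelled progenitors thus carried myelin transcripts near the level of the other groups, and the groups are named below by reporter. A wider list of progenitor genes, of which 21 of 28 were measured, had library medians of 7.73 to 9.89, 7.99 to 8.94 and 7.71 to 8.77 in the same order of groups, below the median of all genes.

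Since transcripts differ in length, from 3700 bases for the longest Lrrn1 transcript to 12427 bases for that of Vcan, levels were set against each other per kb of transcript. Per kb, Lrrn1 lay above 95.2 to 98.5% of genes over the 9 libraries. Matn4 lay above 8.0 to 30.6% of genes. Pdgfra lay above 0.115 to 8.74%, and Vcan above 0.106 to 11.4%.

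**Figure D1:**
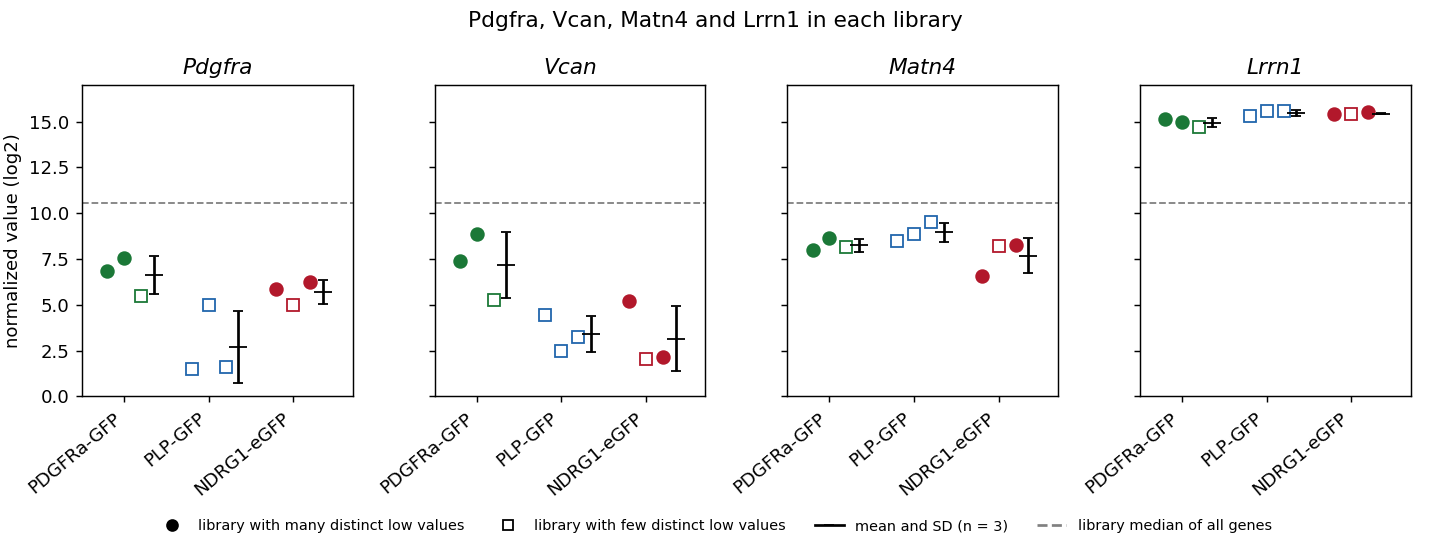
Normalized log2 value (vertical axis) of Pdgfra, Vcan, Matn4 and Lrrn1 in each of the 9 libraries, by reporter group. Filled circles are libraries with many distinct values under 5, open squares are coarse libraries with few, bars give mean and SD (n = 3), and the dashed line is the library median of 10.57. Lrrn1 lies between 14.69 and 15.60 in all libraries, and the values of Pdgfra in PLP-GFP replicates 1 and 3 lie at 1.52 and 1.63.

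Pdgfra and Lrrn1 moved in opposite directions between PLP-GFP and PDGFRa-GFP cells, and the 250 bases before their start sites are shown for that reason. The sequences are from RefSeq on GRCm38.p6, plus strand, at chr5:75152001-75152250 for Pdgfra and chr6:107529476-107529725 for Lrrn1. Capitals mark the E-box letters CANNTG, which read the same on both strands, and the GC box letters GGGCGG, searched on both strands.
Pdgfra: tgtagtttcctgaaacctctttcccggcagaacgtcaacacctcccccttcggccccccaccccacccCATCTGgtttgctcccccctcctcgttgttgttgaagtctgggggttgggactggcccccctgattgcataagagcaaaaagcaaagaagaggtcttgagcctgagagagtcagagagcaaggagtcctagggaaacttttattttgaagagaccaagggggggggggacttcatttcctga
Lrrn1: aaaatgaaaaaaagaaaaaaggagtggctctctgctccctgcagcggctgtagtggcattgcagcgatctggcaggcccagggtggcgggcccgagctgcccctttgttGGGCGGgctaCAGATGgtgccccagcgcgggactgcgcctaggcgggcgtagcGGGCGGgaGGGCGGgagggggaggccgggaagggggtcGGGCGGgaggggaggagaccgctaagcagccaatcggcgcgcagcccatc
The Lrrn1 window held 4 GC box matches and 1 E-box match, with a GC content of 68%. The Pdgfra window held 1 E-box match and 0 GC box matches, with a GC content of 54.4%. The Vcan window held 2 GC box matches, with a GC content of 62.4%. Vcan differed by -3.79 between PLP-GFP and PDGFRa-GFP cells and was not called. The Matn4 windows held 0 and 1 GC box matches, with GC contents of 54.4% and 62.8%. Over 32851 such windows of 27025 genes, 66.2% held CANNTG, 32.7% held GGGCGG and the median GC content was 52.4%. The Lrrn1 window also held the letters ACAAAG once, on the minus strand and outside the capitals, and 16.5% of windows held them on either strand. These matches are a description of letters and not of binding, and their relation to the differences between groups was not tested.

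Pdgfra (ENSMUSG00000029231.15, chromosome 5, 75152292 to 75198215, plus strand, GRCm38, the assembly that mm10 denotes) was low in all groups and lowest in PLP-GFP cells. Its values were 6.87, 7.54 and 5.47 in PDGFRa-GFP libraries, 1.52, 4.98 and 1.63 in PLP-GFP libraries and 5.85, 4.98 and 6.26 in NDRG1-eGFP libraries. Each PLP-GFP library was below every PDGFRa-GFP library, while PDGFRa-GFP and NDRG1-eGFP libraries overlapped. Relative to the library median the means were -3.94 ± 1.05 in PDGFRa-GFP, -7.86 ± 1.96 in PLP-GFP and -4.87 ± 0.65 in NDRG1-eGFP cells (SD, n = 3 each). In PLP-GFP replicates 1 and 3 Pdgfra sat at the second lowest distinct value of the library, which it shared with 74 and 84 other genes.

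In a limma fit over all 11315 genes and 9 libraries, with p adjusted by the Benjamini-Hochberg method, Pdgfra was higher in NDRG1-eGFP relative to PLP-GFP cells by 2.99 ± 1.0 (SE, log2, 95% interval 0.77 to 5.20, adjusted p = 0.0307). It was lower in PLP-GFP relative to PDGFRa-GFP cells, with a log2 fold change of -3.92 ± 1.0 (-6.13 to -1.70, adjusted p = 0.0274). Since the PDGFRa-GFP cells were sorted on a reporter named for this gene, the second difference is a check of the sort and not a finding. Between NDRG1-eGFP and PDGFRa-GFP cells the difference was -0.93 (-3.14 to 1.28, adjusted p = 0.529), so an effect of 0 and a large fall both lie in its interval.

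Both Pdgfra calls rest on values at the bottom of the scale. With every value under 5 raised to 5, the differences were 0.70 (adjusted p = 0.32) for NDRG1-eGFP against PLP-GFP and -1.63 (adjusted p = 0.0685) for PLP-GFP against PDGFRa-GFP. All 3 PLP-GFP libraries were coarse. Among coarse libraries alone Pdgfra was 5.47 in the 1 PDGFRa-GFP library and 4.98 in the 1 NDRG1-eGFP library. In the 3 PLP-GFP libraries it was 1.52, 4.98 and 1.63, or 2.71 on average. The NDRG1-eGFP value thus equalled that of PLP-GFP replicate 2 in the printed digits. The coarse libraries alone were not tested. With a term for coarse libraries the differences were 2.05 (adjusted p = 0.165) and -2.98 (adjusted p = 0.0804). The first call was also lost without PLP-GFP replicate 1 or 3 or NDRG1-eGFP replicate 1 or 3. The second was lost without PDGFRa-GFP replicate 1 or 2 or PLP-GFP replicate 1 or 3. Every direction was kept in these fits, which is fixed in advance where groups do not overlap.

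Across the 3 comparisons, 2 of the 4 genes were called in each, 1 higher and 1 lower. For NDRG1-eGFP against PLP-GFP these were Pdgfra, higher, and Matn4, lower. In that comparison 48.3% of all genes were called, 26.1% higher and 22.2% lower. For PLP-GFP against PDGFRa-GFP they were Lrrn1, higher, and Pdgfra, lower, where 17% of all genes were called, 8.46% higher and 8.53% lower. For NDRG1-eGFP against PDGFRa-GFP they were Lrrn1, higher, and Vcan, lower, where 21.1% of all genes were called, 10.7% higher and 10.4% lower. The libraries of the groups did not overlap for 2, 3 and 2 of the 4 genes in these comparisons, and for 66.4%, 42.3% and 35.3% of all genes, with values compared as deposited. In the first of these the gap of Pdgfra was smaller than the printed digits, at 4.98 in NDRG1-eGFP replicate 2 and 4.98 in PLP-GFP replicate 2, so its groups are parted only in later digits. With 4 genes, a share of this size cannot be set apart from the background. The comparisons share libraries and are not independent of each other. The median log2 fold change of the 4 genes was -0.15, -1.62 and -0.74 in these comparisons, against 0.08, 0.03 and 0.14 for all genes. The first of these medians has no stable sign: it was 0.06 without PLP-GFP replicate 1, 0.13 without NDRG1-eGFP replicate 2 and 0.07 without NDRG1-eGFP replicate 3.

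**Figure D2:**
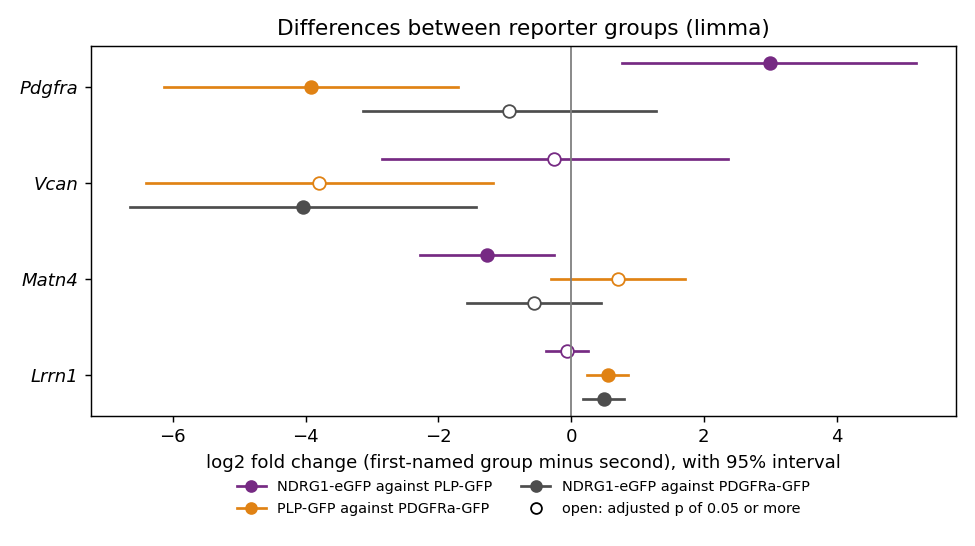
Log2 fold change of each gene (horizontal axis, first-named group minus second) in the 3 comparisons, with 95% intervals from limma over all 9 libraries. Filled points have an adjusted p under 0.05. The intervals of Pdgfra and Vcan span several units, as in -3.92 (-6.13 to -1.70) for Pdgfra in PLP-GFP against PDGFRa-GFP, and those of Lrrn1 less than 1 unit.

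Markers of fibroblasts, which also express Pdgfra, were measured beside it. The median of 10 fibroblast-like genes was 10.52, 9.81 and 9.46 in PDGFRa-GFP libraries, 4.31, 5.79 and 4.81 in PLP-GFP libraries and 9.44, 10.01 and 7.60 in NDRG1-eGFP libraries. Their summed share of the linear values was 0.0129 to 0.0273% in PDGFRa-GFP, 0.000965 to 0.00252% in PLP-GFP and 0.0111 to 0.0221% in NDRG1-eGFP libraries. Of the 10 genes, 9 were higher in NDRG1-eGFP relative to PLP-GFP cells, where 26.1% of all genes were higher. In PLP-GFP relative to PDGFRa-GFP cells 8 were lower, where 8.53% of all genes were lower. Between NDRG1-eGFP and PDGFRa-GFP cells 1 was higher and 0 lower, where 10.7% of all genes were higher and 10.4% lower. Of the 10, 0, 0 and 0 had values under 5 in PDGFRa-GFP libraries, 5, 2 and 6 in PLP-GFP libraries and 0, 0 and 1 in NDRG1-eGFP libraries.

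The defining genes moved as the list did. Col1a1, a chain of the main fibrillar collagen, averaged 8.50 ± 0.86 in NDRG1-eGFP and 4.19 ± 1.78 in PLP-GFP cells (SD, n = 3 each), a difference of 4.31 ± 0.77 (SE, limma adjusted p = 0.00139). Dcn, the matrix proteoglycan decorin, averaged 8.87 ± 1.41 in NDRG1-eGFP and 3.85 ± 2.05 in PLP-GFP cells (SD, n = 3 each), a difference of 5.01 ± 0.97 (SE, limma adjusted p = 0.00217). Their part in the Pdgfra result was not tested. In sorted bulk samples, fewer cells of a type and less RNA per cell cannot be told apart.

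**Figure D3:**
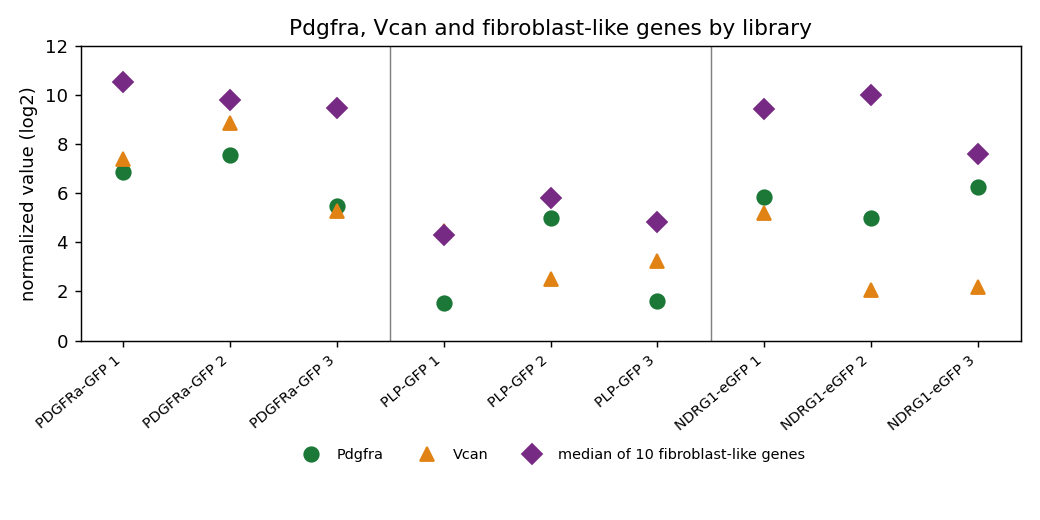
Normalized log2 values (vertical axis) of Pdgfra, Vcan and the median of 10 fibroblast-like genes in each library (horizontal axis, by group and replicate). The fibroblast-like median lies at 4.31 to 5.79 in PLP-GFP libraries and at 7.60 or above in the other 6, and Pdgfra is at 1.52 and 1.63 in PLP-GFP replicates 1 and 3.

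Around the receptor, the ligands and the signalling genes moved in different directions. Of 5 PDGF ligand and other receptor genes looked for, Pdgfa and Pdgfc were measured. Pdgfa, the ligand chain of PDGF-AA, had values of 13.24, 12.99 and 13.17 in NDRG1-eGFP, against 12.45, 12.02 and 12.06 in PLP-GFP libraries. The groups did not overlap, as held for 66.4% of all genes, and the difference was 0.96 ± 0.15 (SE, limma adjusted p = 0.000601). Of all genes 26.1% were higher in that comparison. Pdgfc, another ligand of the alpha receptor, averaged 11.11 ± 0.35 in NDRG1-eGFP and 10.23 ± 0.10 in PLP-GFP cells (SD, n = 3 each), a difference of 0.89 ± 0.19 (SE, limma adjusted p = 0.00417). Both ligands were also higher in NDRG1-eGFP relative to PDGFRa-GFP cells, where 10.7% of all genes were higher. Pdgfa differed by 0.53 ± 0.15 (SE, limma adjusted p = 0.0287) and Pdgfc by 1.36 ± 0.19 (SE, limma adjusted p = 0.000983). The call of Pdgfa was lost without PDGFRa-GFP replicate 1 or NDRG1-eGFP replicate 1 or 3. Neither was called between PLP-GFP and PDGFRa-GFP cells, where Pdgfa differed by -0.43 and Pdgfc by 0.48 (limma adjusted p = 0.066 and 0.109).

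All 22 listed genes of PDGF receptor signalling were measured. Of these, 9 were lower and 0 higher in NDRG1-eGFP relative to PLP-GFP cells, and their median log2 fold change was -0.42, against 0.08 for all genes. Of all genes 22.2% were lower and 26.1% higher in that comparison. Sos2 and Sos1, which load Ras with GTP, were lower by the most: Sos2 averaged 10.48 ± 0.29 in NDRG1-eGFP and 12.46 ± 0.22 in PLP-GFP cells (SD, n = 3 each). The log2 fold changes were -1.98 ± 0.21 for Sos2 and -1.80 ± 0.22 for Sos1 (SE, limma adjusted p = 7.6e-05 and 0.00019). Pik3ca and Pik3r1, the catalytic and regulatory subunits of PI3 kinase, had log2 fold changes of -1.45 ± 0.17 and -1.05 ± 0.15 (SE, limma adjusted p = 0.000123 and 0.000498). Sos1, Sos2, Pik3ca and Pik3r1 stayed called in all 9 fits that left out a library.

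Between PLP-GFP and PDGFRa-GFP cells, 5 of the 22 signalling genes were higher and 0 lower, with a median of 0.35 against 0.03 for all genes, of which 8.46% were higher and 8.53% lower. They were Pik3cb, Sos1, Pik3r1, Gab1 and Crk, with log2 fold changes of 0.73, 0.73, 0.61, 0.59 and 0.52. This count was not stable. It was 0 without PLP-GFP replicate 2, 0 without PLP-GFP replicate 3 and 1 without PDGFRa-GFP replicate 2. It was 8, with 1 lower, without PDGFRa-GFP replicate 3 and 0 once the trend of each library on transcript length was removed. Calls over all 11315 genes moved too: they were 1922 with all 9 libraries, and 278 to 2789 with 1 left out. The lowest of these, 278, was without PLP-GFP replicate 2. Between NDRG1-eGFP and PDGFRa-GFP cells 6 were lower and 0 higher, where 10.4% of all genes were lower and 10.7% higher, with Sos2 at -1.32 ± 0.21 and Pik3ca at -1.08 ± 0.17 (SE, limma adjusted p = 0.00199 and 0.00162). The 6 became 11, with 1 higher, without PDGFRa-GFP replicate 3, where calls over all genes rose to 4621 from 2383.

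**Figure D4:**
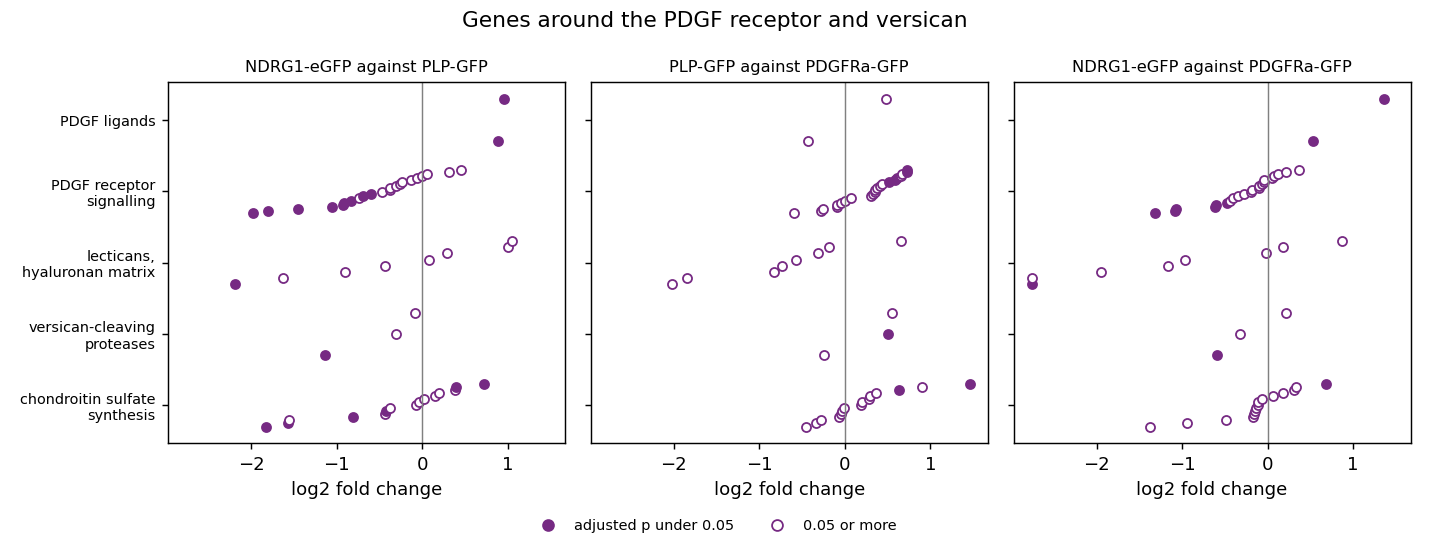
Log2 fold change (horizontal axis, first-named group minus second) of the measured genes of 5 lists around the PDGF receptor and versican, 1 point per gene, in the 3 comparisons. Filled points have a limma adjusted p under 0.05. In NDRG1-eGFP against PLP-GFP the 9 filled points of the signalling list all lie below 0, down to -1.98 for Sos2.

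Vcan (ENSMUSG00000021614.16, chromosome 13, 89655312 to 89742509, minus strand) was highest in PDGFRa-GFP cells and near the bottom of the scale in the other groups. Its values were 7.41, 8.87 and 5.27 in PDGFRa-GFP libraries, 4.45, 2.49 and 3.24 in PLP-GFP libraries and 5.21, 2.05 and 2.18 in NDRG1-eGFP libraries. All 6 PLP-GFP and NDRG1-eGFP values were below the lowest PDGFRa-GFP value, but NDRG1-eGFP replicate 1 was only just below PDGFRa-GFP replicate 3. Relative to the library median the means were -3.39 ± 1.81 in PDGFRa-GFP, -7.18 ± 0.98 in PLP-GFP and -7.42 ± 1.79 in NDRG1-eGFP cells (SD, n = 3 each).

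Vcan was lower in NDRG1-eGFP relative to PDGFRa-GFP cells, with a log2 fold change of -4.04 ± 1.18 (SE, 95% interval -6.64 to -1.43, limma adjusted p = 0.0352). The difference of PLP-GFP from PDGFRa-GFP was of like size at -3.79 ± 1.18 (-6.40 to -1.18) but its adjusted p was 0.0507, and it was not called. NDRG1-eGFP and PLP-GFP cells differed by -0.25 (-2.85 to 2.36, adjusted p = 0.878), an interval wide enough to hold a change of several-fold either way. Without PDGFRa-GFP replicate 3, the library that stood apart, the differences from PDGFRa-GFP cells were -4.99 (adjusted p = 0.00937) for NDRG1-eGFP and -4.75 (adjusted p = 0.0204) for PLP-GFP, both called.

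The call for NDRG1-eGFP against PDGFRa-GFP was lost without PDGFRa-GFP replicate 1 or 2, PLP-GFP replicate 3 or NDRG1-eGFP replicate 2 or 3, with differences of -3.19 to -4.04. With values under 5 raised to 5 it was -2.11 (adjusted p = 0.0651). Among coarse libraries Vcan was 5.27 in the 1 PDGFRa-GFP library, 3.39 on average in the 3 PLP-GFP libraries and 2.05 in the 1 NDRG1-eGFP library. Among the others it averaged 3.69 in 2 NDRG1-eGFP and 8.14 in 2 PDGFRa-GFP libraries. The direction was the same in both sets, which is fixed in advance where groups do not overlap.

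The matrix genes around versican were counted next. Of 16 genes listed around the lecticans and the hyaluronan matrix, 8 were measured. Ncan, which encodes neurocan, another proteoglycan of the versican family, was the 1 gene called, in both comparisons with NDRG1-eGFP cells, where 48.3% (against PLP-GFP) and 21.1% (against PDGFRa-GFP) of all genes were called. It had values of 5.37, 4.76 and 3.47 in NDRG1-eGFP libraries, against 6.78, 7.91 and 7.19 in PDGFRa-GFP libraries, a difference of -2.76 ± 0.56 (SE, limma adjusted p = 0.00779). The values in NDRG1-eGFP replicates 2 and 3 lay under 5, near the bottom of the scale. Ncan was also lower in NDRG1-eGFP relative to PLP-GFP cells, with a log2 fold change of -2.19 ± 0.56 (SE, limma adjusted p = 0.00936). Once the length trend was removed, 2 of the 8 were higher and 0 lower in that comparison, so Ncan was not called. Bcan, encoding brevican, differed by -2.02 ± 1.05 between PLP-GFP and PDGFRa-GFP cells and was not called (SE, limma adjusted p = 0.196). Without PDGFRa-GFP replicate 3, 4 of the 8 were lower in NDRG1-eGFP and 3 of the 8 in PLP-GFP relative to PDGFRa-GFP cells. In the first of these comparisons calls over all 11315 genes rose as well, to 4621 without that library from 2383 with it. In the second, calls over all genes were 1922 with all 9 libraries and up to 2789 with 1 left out. These totals count both directions.

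Enzymes that cut versican and that build its sugar chains gave calls in both directions. Of 6 listed proteases 3 were measured. Adamts4, a protease of the aggrecanase type, averaged 15.43 ± 0.13 in PLP-GFP and 14.92 ± 0.13 in PDGFRa-GFP cells (SD, n = 3 each), a difference of 0.51 ± 0.12 (SE, limma adjusted p = 0.024) that was not called without PDGFRa-GFP replicate 2 or PLP-GFP replicate 2 or 3. Adamts1 was lower in NDRG1-eGFP relative to PLP-GFP cells, at 11.91 ± 0.16 and 13.04 ± 0.17 (SD, n = 3 each), with a log2 fold change of -1.14 ± 0.18 (SE, limma adjusted p = 0.000807). Of 19 chondroitin sulfate synthesis genes 15 were measured, with 2 higher and 4 lower in NDRG1-eGFP relative to PLP-GFP cells, against 26.1% higher and 22.2% lower of all genes. Without PLP-GFP replicate 1 or 2 these counts were 1 higher and 2 lower. Chst3, a sulfotransferase of the chain, had the smallest adjusted p of these, with 10.75, 10.05 and 10.53 in NDRG1-eGFP against 11.95, 12.23 and 11.87 in PLP-GFP libraries (-1.57 ± 0.22, SE, limma adjusted p = 0.000411). It was also higher in PLP-GFP relative to PDGFRa-GFP cells, by 1.46 ± 0.22 (SE, limma adjusted p = 0.00474).

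Matn4 (ENSMUSG00000016995.17, chromosome 2, 164389393 to 164405160, minus strand) had its lowest mean in NDRG1-eGFP cells. Its values were 7.97, 8.63 and 8.14 in PDGFRa-GFP libraries, 8.49, 8.84 and 9.54 in PLP-GFP libraries and 6.57, 8.23 and 8.28 in NDRG1-eGFP libraries. The NDRG1-eGFP libraries were all below the PLP-GFP libraries, with replicate 1 far below the rest, and the PDGFRa-GFP libraries overlapped both groups. Relative to the library median the means were -2.32 ± 0.34 in PDGFRa-GFP, -1.61 ± 0.54 in PLP-GFP and -2.88 ± 0.97 in NDRG1-eGFP cells (SD, n = 3 each).

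Matn4 was lower in NDRG1-eGFP relative to PLP-GFP cells, with a log2 fold change of -1.26 ± 0.46 (SE, 95% interval -2.27 to -0.25, limma adjusted p = 0.0413). The call was lost without NDRG1-eGFP replicate 1, where the difference was -0.70 (adjusted p = 0.131), and without PLP-GFP replicate 2 or 3 (adjusted p = 0.0847 and 0.156). The other differences were 0.71 (-0.30 to 1.72) for PLP-GFP against PDGFRa-GFP and -0.56 (-1.57 to 0.45) for NDRG1-eGFP against PDGFRa-GFP, with adjusted p of 0.294 and 0.404. Matn4 therefore gave no call that set the PDGFRa-GFP cells apart from another group.

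The start of Matn4 overlaps Rbpjl, a transcription factor gene on the opposite strand (164403141 to 164415448), and the strand of the counting is not given in the sources used here, so reads of the overlap cannot be told apart. Rbpjl averaged 5.18 ± 0.67 in NDRG1-eGFP and 6.51 ± 0.38 in PLP-GFP cells (SD, n = 3 each) and was not called (-1.32 ± 0.67, SE, limma adjusted p = 0.123). Of the 50-base windows of Matn4 transcripts, 1.44% also occur in Rbpjl transcripts. Of 3 other matrilin genes looked for, Matn2 was measured. It had values of 11.46, 11.62 and 11.36 in PLP-GFP libraries, against 10.88, 10.80 and 10.98 in PDGFRa-GFP libraries, a difference of 0.60 ± 0.14 (SE, limma adjusted p = 0.0213). Its difference of NDRG1-eGFP from PDGFRa-GFP cells was 0.60 ± 0.14 as well (limma adjusted p = 0.0144). The first of these calls was lost without PDGFRa-GFP replicate 2 or PLP-GFP replicate 2 or 3, and the second without NDRG1-eGFP replicate 1.

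Lrrn1 (ENSMUSG00000034648.9, chromosome 6, 107529768 to 107570214, plus strand) was abundant in every group and lowest in PDGFRa-GFP cells. Its values were 15.16, 14.99 and 14.69 in PDGFRa-GFP libraries, 15.31, 15.60 and 15.57 in PLP-GFP libraries and 15.41, 15.41 and 15.50 in NDRG1-eGFP libraries. Every PLP-GFP and NDRG1-eGFP library was above every PDGFRa-GFP library. Relative to the library median the means were 4.38 ± 0.24 in PDGFRa-GFP, 4.92 ± 0.16 in PLP-GFP and 4.87 ± 0.05 in NDRG1-eGFP cells (SD, n = 3 each). Over the 9 libraries 97.2 to 98.9% of genes had a lower value.

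Lrrn1 was higher in PLP-GFP relative to PDGFRa-GFP cells by 0.55 ± 0.14 (SE, log2, 95% interval 0.24 to 0.86, limma adjusted p = 0.0274). It was higher in NDRG1-eGFP relative to PDGFRa-GFP cells by 0.49 ± 0.14 (0.18 to 0.80, adjusted p = 0.0329). NDRG1-eGFP and PLP-GFP cells differed by -0.06 (-0.37 to 0.25, adjusted p = 0.753). The first call was lost without PDGFRa-GFP replicate 2 or PLP-GFP replicate 2 or 3 (differences 0.49 to 0.57), and the second in 6 of 9 fits that left out a library (differences 0.46 to 0.51). Those 6 fits left out PDGFRa-GFP replicate 2, PLP-GFP replicate 2 or 3 or any NDRG1-eGFP library. With libraries recentred on the median ratio, which moved the median of all genes in this comparison to 0.04 from 0.14, the second difference was 0.39 (adjusted p = 0.0992). Without PDGFRa-GFP replicate 3, the lowest library, the differences were 0.42 and 0.36 and both stayed under the threshold (adjusted p = 0.0259 and 0.0288).

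Of 3 other genes of the Lrrn family, Lrrn2 and Lrrn3 were measured, both membrane proteins with leucine-rich repeats. Lrrn3 had values of 10.44, 10.89 and 10.83 in PLP-GFP libraries, against 10.16, 9.53 and 9.0 in PDGFRa-GFP libraries, and was higher by 1.16 ± 0.28 (SE, limma adjusted p = 0.0232), a call lost without PDGFRa-GFP replicate 2 or PLP-GFP replicate 2 or 3. Lrrn2 differed by 1.26 ± 0.49 and was not called (SE, limma adjusted p = 0.0988), though it was called, higher, without PDGFRa-GFP replicate 2.

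**Figure D5:**
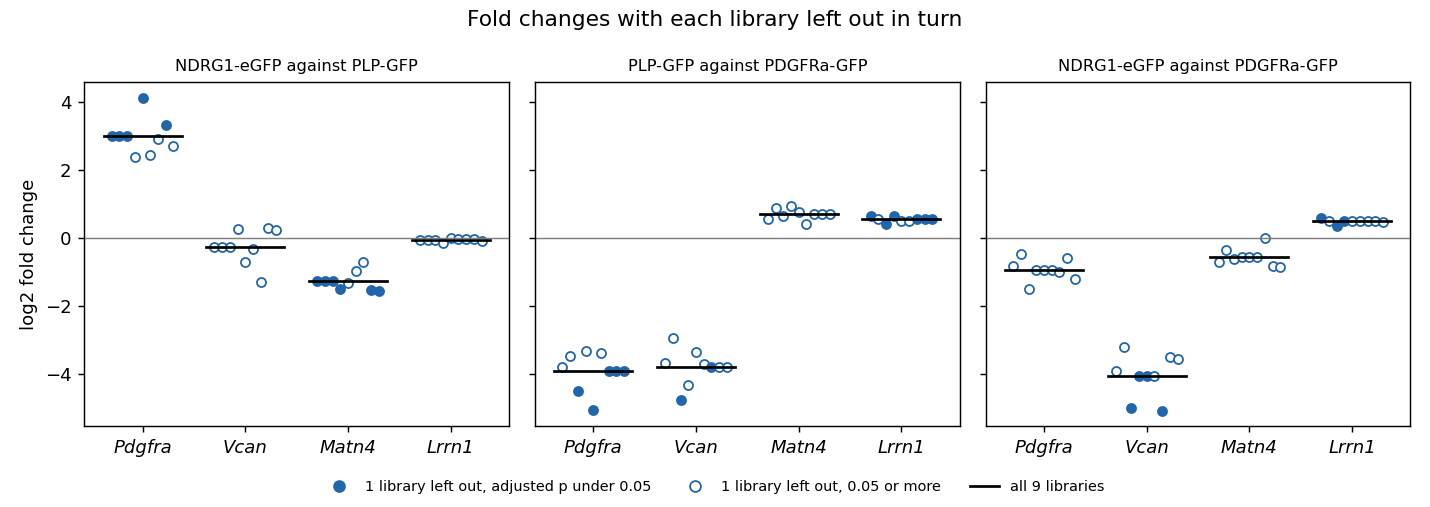
Log2 fold change (vertical axis, first-named group minus second) of each gene with 1 library left out at a time, 9 fits per gene and comparison, beside the value from all 9 libraries (black line). Filled points have an adjusted p under 0.05. Pdgfra in PLP-GFP against PDGFRa-GFP lies between -5.05 and -3.32, and Vcan in NDRG1-eGFP against PLP-GFP lies on both sides of 0.

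The wider progenitor list had calls in both directions. It shares Bcan, Ncan, Tnr, Cspg4, Cspg5 and Ptprz1 with the matrix genes around versican, so its counts are not separate from theirs. Of its 21 measured genes, 1 was higher and 3 lower in NDRG1-eGFP relative to PLP-GFP cells, where 26.1% of all genes were higher and 22.2% lower, with a median of -0.43 against 0.08 for all genes. This median turned to 0.11 without NDRG1-eGFP replicate 2, with 3 higher and 2 lower. The lower count was 6 without PDGFRa-GFP replicate 3, and the counts were 0 higher and 2 lower without PLP-GFP replicate 2 or 3. Between PLP-GFP and PDGFRa-GFP cells 1 was higher and 2 lower, where 17% of all genes were called. Luzp2, which encodes a leucine zipper protein, averaged 11.18 ± 0.15 in NDRG1-eGFP and 12.88 ± 0.22 in PLP-GFP cells (SD, n = 3 each), a difference of -1.70 ± 0.21 (SE, limma adjusted p = 0.000181). Nkx2-2, a transcription factor of the lineage, fell by 0.57 ± 0.19 and Olig1, another, rose by 0.39 ± 0.11 (log2, SE, limma adjusted p = 0.0287 and 0.0147). Between PLP-GFP and PDGFRa-GFP cells Luzp2 was higher by 1.60 ± 0.21, while Neu4, a sialidase, and Mmp15, a membrane metalloprotease, had log2 fold changes of -5.0 ± 1.40 and -1.40 ± 0.38 (SE, limma adjusted p = 0.00211, 0.0369 and 0.0323). Luzp2 and Ncan stayed called in all 9 fits that left out a library, though Ncan lay under 5 in NDRG1-eGFP replicates 2 and 3. Nkx2-2 was lost without PLP-GFP or NDRG1-eGFP replicate 2 or 3 and Olig1 without PLP-GFP replicate 2 or 3, while Neu4 and Mmp15 were lost without PDGFRa-GFP replicate 1 or 2 or any PLP-GFP library.

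Neu4 was near the bottom of the scale in PLP-GFP libraries. It had 4.02, 3.03 and 3.61 in PLP-GFP libraries, against 8.69, 9.90 and 7.07 in PDGFRa-GFP libraries. Between NDRG1-eGFP and PDGFRa-GFP cells Ncan was the 1 gene of the 21 called, against 21.1% of all genes. Without PDGFRa-GFP replicate 3 the lower counts were larger: 8 of 21 in NDRG1-eGFP against PDGFRa-GFP and 6 of 21 in PLP-GFP against PDGFRa-GFP, with 0 and 1 higher. Without that library 4621 genes of all were called in the first of these comparisons, against 2383 with it. For PLP-GFP against PDGFRa-GFP, calls over all genes were 1922 with all 9 libraries and up to 2789 with 1 left out. These totals count both directions.

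The genes whose values followed each of the 4 most closely over the 9 libraries were found among 7320 other genes with a range of at least 1 (7321 for Lrrn1), by Pearson's correlation. For Pdgfra they were Col1a1 (0.92), Pid1 (0.91) and Icam1 (0.89). For Vcan they were Arglu1 (0.93), Mthfsl (0.92) and Mycl (0.89). For Matn4 they were Trim9, Fbxo30 and Efnb2 (0.94 each), and for Lrrn1 they were Rab23 (0.99), Fip1l1 (0.97) and Ugt8a (0.96). The 9 points share 3 groups and their normalization, and the highest of so many correlations over so few points is high by selection, so these are descriptions. Icam1, a cell adhesion molecule, averaged 7.10 in PDGFRa-GFP, 3.28 in PLP-GFP and 7.57 in NDRG1-eGFP cells. Ugt8a, an enzyme of myelin galactolipid synthesis, averaged 16.69, 17.22 and 17.16 in the same order.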

How the data were processed

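RNA of fluorescence-sorted mouse brain cells was measured in 9 libraries, 3 per reporter. Total RNA came from the same pellets as DNA with a column kit, per the labels' protocols. BWA, DESeq2 1.2.5 and the build mm10 stand in the submitters' processing notes without roles, so aligner settings and strand are not given in the sources used here. The deposited values are log2 normalized values, per the file headers and their range of 0.29 to 21.87; that they hold almost the same set of values in each library was seen from the files. Raw counts were not analysed here, so depth is unknown and no counting interval is given.

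Differences were fitted with limma-trend (limma 3.58.1, R 4.3.3) on all 9 libraries, 1 term per group, Benjamini-Hochberg adjustment over 11315 genes, two-sided, called at an adjusted p under 0.05. Genes needed 3 or more libraries with a value of 1 or above, which removed 0 genes, so all 4 members were tested. An exact permutation test of 3 against 3 cannot go below 0.1 and was not used. The fit was tested on data simulated with normal noise of each gene's own spread, with 100 genes changed 2-fold and 100 changed 4-fold. These data had no coarse low values and no library that stood apart, so the rates need not hold for the real libraries. Over the 3 comparisons the fit recovered 43 to 55% of changes of 2-fold and 78 to 85% of changes of 4-fold. False calls were 4.69% of calls for NDRG1-eGFP against PLP-GFP. They were 6.04% for PLP-GFP and 7.25% for NDRG1-eGFP against PDGFRa-GFP. Fold changes are on the deposited log2 scale.

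The 4 members and all gene lists were chosen with earlier results of these data known. Named genes were the members, up to 4 called genes of each list and comparison by smallest adjusted p, genes whose role is told in pathway order, defining markers, and the 3 genes most correlated with each member, passing over predicted genes and 17 symbols turned into dates. Loci, transcript lengths and shared windows came from GENCODE M21 and promoters from RefSeq. Of the 50-base windows of Pdgfra transcripts, 4.93% also occur in transcripts of other genes, and 0 for Vcan and Lrrn1. The other genes include Gm42802 and Gm42803, which overlap Pdgfra on the opposite strand and were not among the measured genes. Alternatives were other scalings, filters, added constants, a length correction, a replicate block, fits of 2 groups, robust shrinkage, a threshold of 0.01 and leaving out each library.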

Additional observations from a re-analysis of the deposited data

How the results depend on the processing

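The calls of Pdgfra, Vcan, Matn4 and Lrrn1 kept their direction in every fit that gave a value, and none was called in all. Leaving out a library could not have turned these directions, since the groups of each call did not overlap. With each of the 9 libraries left out, Pdgfra lay between 2.39 and 4.12 for NDRG1-eGFP against PLP-GFP (adjusted p 0.00716 to 0.0984) and between -5.05 and -3.32 for PLP-GFP against PDGFRa-GFP. Vcan lay between -5.07 and -3.19 for NDRG1-eGFP against PDGFRa-GFP, between -4.75 and -2.95 for PLP-GFP against PDGFRa-GFP (called in 2 of 9) and between -1.28 and 0.30 for NDRG1-eGFP against PLP-GFP, with both signs. Matn4 lay between -1.56 and -0.70 for NDRG1-eGFP against PLP-GFP and between -0.85 and 0.00 for NDRG1-eGFP against PDGFRa-GFP. In 1 fit the sign of the second difference, which was not called, turned by less than the printed digits. Lrrn1 lay between 0.42 and 0.65 for PLP-GFP against PDGFRa-GFP and between 0.36 and 0.59 for NDRG1-eGFP against PDGFRa-GFP. Genes called ranged over 3961 to 6908, 278 to 2789 and 1316 to 4621 in these comparisons (NDRG1-eGFP against PLP-GFP first, then PLP-GFP and NDRG1-eGFP each against PDGFRa-GFP). The second count was 759 without PDGFRa-GFP replicate 2, 278 and 369 without PLP-GFP replicates 2 and 3. The third was 1547 and 4621 without PDGFRa-GFP replicates 1 and 3, and 1372 and 1316 without NDRG1-eGFP replicates 1 and 2.

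Other fits changed calls as follows, and the cause was not tested. At an adjusted p under 0.01 all 6 calls were lost (2.99, -3.92, -4.04, -1.26, 0.55 and 0.49), with 3526, 292 and 899 genes left. With only the 2 groups compared, where fewer libraries give the spread, Pdgfra (2.99 and -3.92), Vcan against PDGFRa-GFP in NDRG1-eGFP (-4.04) and Lrrn1 (0.55 and 0.49) were not called, Vcan in PLP-GFP (-3.79, adjusted p = 0.0496) was, and 1066 and 1042 genes were called in PLP-GFP and NDRG1-eGFP against PDGFRa-GFP. That Vcan difference was also called with normal scores (-2.66), with 5 added on the linear scale (-3.26) and with robust shrinkage (-3.79, adjusted p = 0.049). Recentring on the median ratio gave 0.39 for Lrrn1 in NDRG1-eGFP against PDGFRa-GFP. Removing the length trend gave 0.38 for Vcan in NDRG1-eGFP against PLP-GFP, a turned sign, -1.15 for Matn4 (adjusted p = 0.0682), -3.57 for Vcan in NDRG1-eGFP against PDGFRa-GFP (adjusted p = 0.0592) and 1081 genes for PLP-GFP against PDGFRa-GFP.

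Chosen after seeing the data, raising values under 5 to 5 gave 0.70 and -1.63 for Pdgfra, -2.11 for Vcan in NDRG1-eGFP against PDGFRa-GFP and 0.07 for Vcan in NDRG1-eGFP against PLP-GFP. A term for coarse libraries, chosen likewise, gave 2.05 and -2.98 for Pdgfra, -1.05 for Matn4 in NDRG1-eGFP against PLP-GFP and 3014 genes for PLP-GFP against PDGFRa-GFP. Per kb, the level relative to the median was -5.79 for Pdgfra in NDRG1-eGFP and -9.02 for Vcan in PLP-GFP cells. A filter that kept means of 8 or more left out Pdgfra and Vcan.

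The replicate numbers did not pair libraries: correlations of same-numbered deviations were -0.23 to 0.09. With the replicate number as a block, 722 and 1321 genes were called in PLP-GFP and NDRG1-eGFP against PDGFRa-GFP, and Pdgfra (-3.92, adjusted p = 0.054) and Lrrn1 (0.55 and 0.49, adjusted p = 0.0732 and 0.0826) were not. With depth unknown, the low values of Pdgfra and Vcan cannot be given a counting error.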

Other observations

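The 4 genes differed in how closely libraries of a group agreed. The SD within groups was 1.34 for Pdgfra, 1.57 for Vcan, 0.67 for Matn4 and 0.17 for Lrrn1, against a median of 0.26 over all genes. Genes with a mean within 0.5 of theirs had median SDs of 1.21, 1.46, 0.37 and 0.18, so Matn4 varied more within groups than most genes of its level.

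Markers of other cell types were compared between NDRG1-eGFP and PLP-GFP cells, where 26.1% of all genes were higher and 22.2% lower. NDRG1-eGFP cells had 8 of 9 measured microglial genes higher and 0 lower relative to PLP-GFP cells (limma), with library medians of 8.83 to 9.57 in NDRG1-eGFP and 7.15 to 7.68 in PLP-GFP libraries. Of 10 astrocyte genes 2 were higher and 0 lower, and of 7 neuronal genes 0 were called in the same comparison. Of 12 genes of newly formed oligodendrocytes, 5 were higher and 1 lower, and the 5 became 2 without NDRG1-eGFP replicate 1 and 3 without NDRG1-eGFP replicate 2. The astrocyte count of 2 was 1 with either of these libraries left out, and the neuronal count was 1 higher without PDGFRa-GFP replicate 3 or PLP-GFP replicate 1. Their relation to the 4 genes was not tested.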
